A study of Mus musculus with 9 samples.

Results

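The genes described here are 10 genes of microglia, the resident macrophages of the brain and spinal cord: the complement C1q chains C1qa, C1qb and C1qc, and Aif1, Csf1r, Cx3cr1, P2ry12, Tyrobp, Trem2 and Ctss. Every probe set that the array annotation assigns to one of these symbols alone was taken, whatever its signal. That gave 16 of the 45037 non-control probe sets, for 10 of the 18193 annotated genes, and each of the 10 genes had at least 1 probe set.

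The 9 arrays were Affymetrix mouse expression arrays, 3 for each of 3 groups. The first group was total spinal cord of wild-type mice, the second was motor neurons of wild-type mice and the third was motor neurons of mice labelled as SOD1 mutants, both lifted out of tissue sections by laser capture microdissection. SOD1 is the cytosolic superoxide dismutase that is mutated in an inherited form of the motor neuron disease amyotrophic lateral sclerosis. All 9 sample names share the prefix D28, which the labels do not explain, so the age and disease stage of the mice are not known here. The labels also leave out the SOD1 allele, the means by which motor neurons were recognised, and whether any arrays come from the same animal. Another label field gives ventral cord for all 9 arrays, and cord from SOD1-mutant mice was not analysed here.

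Microglia clear debris and synapses and survey the tissue with fine processes, and each of these genes serves a step of that work. C1q is the starting molecule of the classical complement pathway, assembled from A, B and C chains that are encoded by neighbouring genes, and in the central nervous system it is made mainly by microglia and tags synapses and cell remains for removal. Csf1r is the receptor kinase that keeps microglia alive, Cx3cr1 is the receptor for neuronal fractalkine, and P2ry12 senses the nucleotides that injured cells release. Trem2 binds lipids and lipoproteins and signals through the adaptor Tyrobp, Aif1 (also called Iba1) is an actin-binding protein, and Ctss is the lysosomal protease cathepsin S. Neurons themselves are not known as a main source of any of the 10.

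The sequences just upstream of several of these genes are shown because the genes fell together in the captured neurons and because microglial genes are known targets of PU.1 (Spi1), a macrophage transcription factor that reads purine-rich sites. RefSeq gave a window of 300 bases around the start of 7 of the 10 genes (build GRCm38.p6). Both strands were searched for GAGGAAGT and for its inner part AGGAAG, so that every GAGGAAGT is also counted as an AGGAAG. Capitals mark the matches, which are written ACTTCCTC or CTTCCT where they lie on the other strand. The C1qc and C1qb lines give the 250 bases before the start, the P2ry12 line gives 100 bases before it, and the Ctss line gives 30 bases across it.
C1qc, chr4:136892915-136893164, minus strand: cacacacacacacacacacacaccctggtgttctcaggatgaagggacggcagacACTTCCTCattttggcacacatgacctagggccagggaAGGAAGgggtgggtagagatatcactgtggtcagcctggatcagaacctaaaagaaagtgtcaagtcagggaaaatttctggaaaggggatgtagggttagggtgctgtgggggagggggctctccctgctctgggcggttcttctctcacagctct
C1qb, chr4:136886201-136886450, minus strand: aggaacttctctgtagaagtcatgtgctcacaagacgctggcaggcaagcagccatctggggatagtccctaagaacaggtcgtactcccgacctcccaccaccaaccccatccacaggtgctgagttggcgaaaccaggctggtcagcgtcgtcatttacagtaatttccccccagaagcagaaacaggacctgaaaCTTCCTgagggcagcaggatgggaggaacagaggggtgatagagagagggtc
P2ry12, chr3:59262986-59263085, minus strand: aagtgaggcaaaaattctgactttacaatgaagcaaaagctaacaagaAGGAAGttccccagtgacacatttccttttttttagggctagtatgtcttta
Ctss, chr3:95526773-95526802, plus strand: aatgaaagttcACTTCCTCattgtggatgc
GAGGAAGT was found in the C1qc and Ctss windows, 2 of 7, against 3.2% of all 32851 RefSeq windows of 300 bases. Its first base lay 195 bases before the start of C1qc and 2 bases before that of Ctss, on the opposite strand in both. AGGAAG was found in 5 of the 7 windows (C1qb, C1qc, P2ry12, Trem2 and Ctss), against 35.4% of all windows, and in neither the Aif1 nor the Cx3cr1 window. Such matches are a description of letters in these windows.

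Values are the deposited linear signal intensities, which had been scaled to one trimmed mean of 2500 on every array. Log2 fold changes were taken after adding 20.3, the 10th percentile of all values, and are differences on that scale, which understates the change of dim probe sets. They were tested with limma over all 45037 probe sets, and a call means an adjusted p (Benjamini-Hochberg) under 0.05. A probe set was taken as measured on an array when it exceeded that array's background, the 95th percentile of 27 bacterial control probe sets, which ran from 131 to 244 over the 9 arrays. Where every array of the dimmer group lay below background, the change is a bound, written "at least": the mean log2 signal of the bright group against the mean of the higher of background and signal on the dim arrays. With 3 arrays a group the precision is limited by their number, and the p-values rest on how far the arrays of a group differ, a spread that may be technical.

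Median signals were 556 to 582 on cord arrays, 269 to 313 on wild-type neuron arrays and 274 to 366 on SOD1-mutant ones, and 70.8 to 73.7%, 62.0 to 66.9% and 59.6 to 61.1% of all probe sets exceeded background. The motor neuron transcription factor Mnx1 averaged 285 in cord, 6882 in wild-type and 5127 in SOD1-mutant neurons, in the direction of the labels. Chat, which makes acetylcholine, averaged 424, 673 and 673 and did not pass the test as deposited. As deposited, 9 of the 11 measured motor neuron markers passed as higher in wild-type neurons and 8 in SOD1-mutant neurons. After quantile normalization, and after centring on the median, all 11, with Chat, passed as higher in both neuron groups. Both scalings also raised the number of all probe sets called higher than cord. For wild-type neurons it went from 6647 as deposited to 10291 after quantile normalization and 15633 after centring. For SOD1-mutant neurons the counts were 6102, 9631 and 14227. The brightest Sod1 probe set averaged 36370, 109800 and 115000, and a mouse array does not check the SOD1-mutant label. On the log2 scale, the 3' over 5' Gapdh control ratio ran from −0.29 to −0.26 for cord, 3.65 to 4.52 in wild-type and 4.33 to 4.63 in SOD1-mutant neurons. These control transcripts were thus read far more from their 3' ends in captured RNA than in cord RNA. This moves with every difference from cord given here, and its part in them was not tested.

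In wild-type cord 15 of the 16 probe sets exceeded background on all 3 arrays, and all 10 genes had at least 1 such probe set, so the tissue carried the markers of microglia. In captured neurons 9 or 10 of the 16 exceeded background on any one array. That is near the share of all probe sets, 62.0 to 66.9% on wild-type and 59.6 to 61.1% on SOD1-mutant neuron arrays, against 70.8 to 73.7% on cord arrays. The exception in cord was Trem2 1421226_at, with 51.0, 53.7 and 13.3, which was below background on all 9 arrays, so that neither its level nor its changes are measured here.

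**Figure D1:**
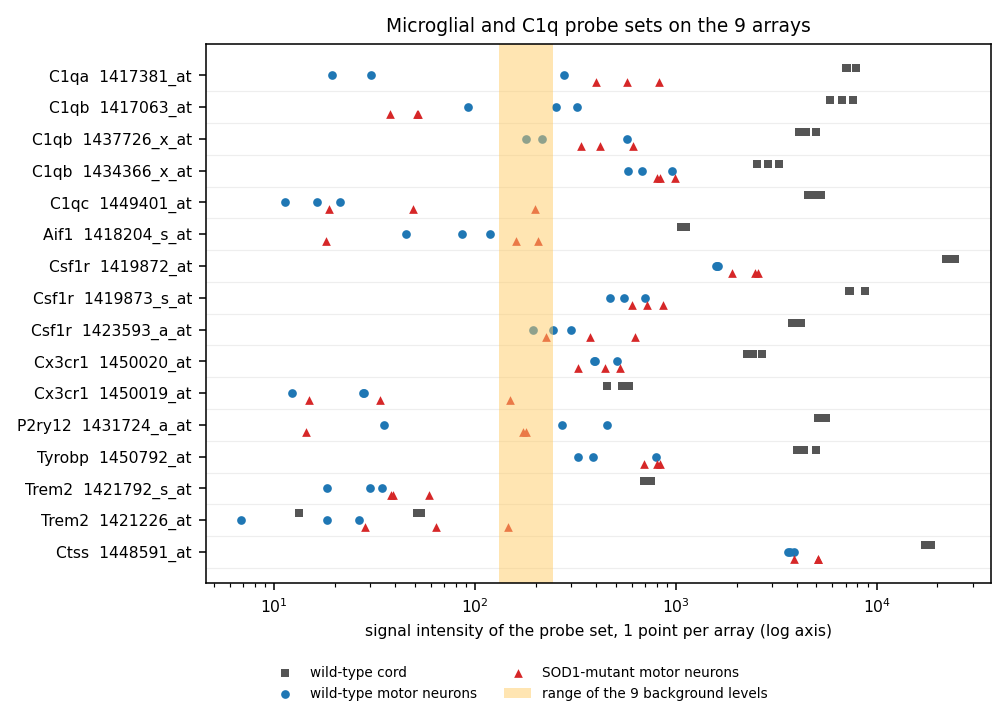
Signal intensity of the 16 probe sets on a log axis, 1 point per array: grey squares for the 3 wild-type cord arrays, blue circles for the 3 wild-type neuron arrays and red triangles for the 3 SOD1-mutant neuron arrays, with the range of the background levels (131 to 244) shaded. Apart from Trem2 1421226_at, the cord arrays stand to the right of all 6 neuron arrays on each line, while blue and red points mostly interleave.

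Against cord, every one of the 10 microglial genes was lower in wild-type motor neurons. Of the 16 probe sets 15 passed the test as lower and none as higher, where 30.6% of all probe sets passed as lower (10 of 10 genes by their brightest probe set, against 28.6% of all genes, with a further 22.5% of all genes higher). On the same 15 the neuron arrays all lay below the cord arrays, against 36.4% of all probe sets. The median log2 change was −3.79 over the 16 probe sets and −0.31 over all 45037. SOD1-mutant neurons gave 15 of 16 lower as well, against 29.2% of all probe sets (10 of 10 genes, against 27.5%), with all 3 arrays below cord on 15, against 35.3%, and a median of −3.30 against −0.27. These comparisons share the same cord arrays, so they are not independent of each other. In bulk samples such as these, fewer microglia and less RNA per microglial cell cannot be told apart. With each array centred on its median in place of the authors' scaling, the median change of all probe sets from cord to wild-type neurons moved from −0.31 to 0.60, and the split of all calls moved from 13771 lower and 6647 higher to 6645 and 15633. The 15 probe sets remained lower under that scaling and under quantile normalization, with a median over the 10 genes of −3.91 as deposited, −3.56 after quantile normalization and −3.00 after centring.

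**Figure D2:**
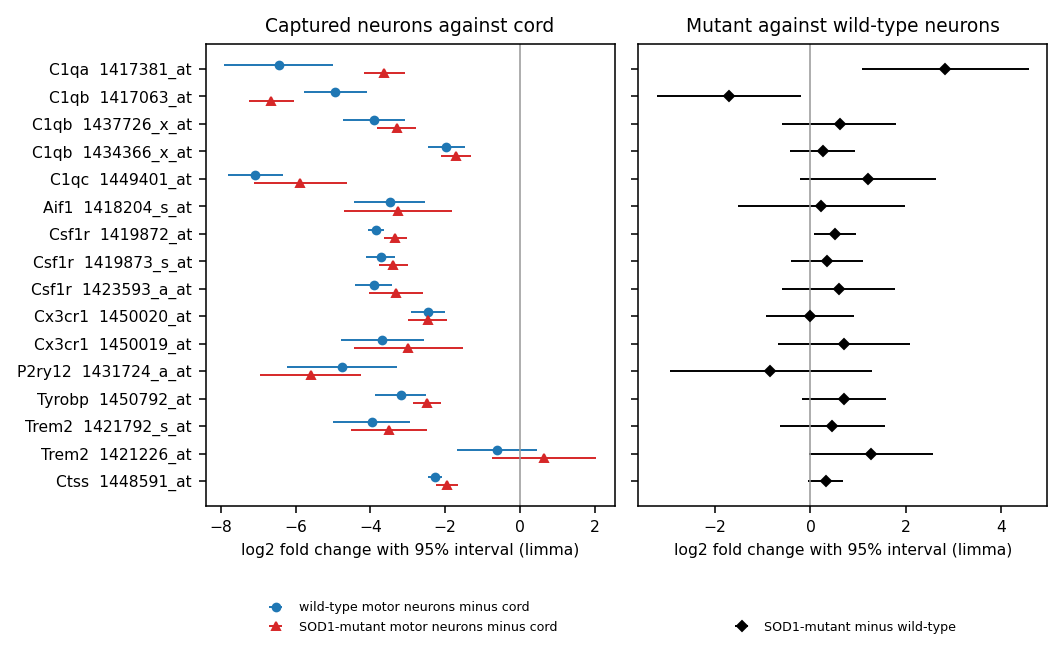
Log2 fold change of each probe set with its 95% interval from limma: left, wild-type (blue circles) and SOD1-mutant neurons (red triangles) minus wild-type cord; right, SOD1-mutant minus wild-type neurons (black diamonds). All intervals on the left lie below 0 except those of Trem2 1421226_at, whose signal never exceeded background, and on the right most intervals cross 0.

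All 3 C1q chain genes fell from cord in both neuron groups. In wild-type neurons C1qc and C1qa had the largest fitted falls among the brightest probe sets, while C1qb (−4.94) and P2ry12 (−4.76) lay close together and changed places without the first wild-type neuron array (−4.46 and −5.40). The A chain gene C1qa (1417381_at) read 7862, 7116 and 7003 on the cord arrays, 275, 30.4 and 19.45 on the wild-type neuron arrays and 825, 399.9 and 570.2 on the SOD1-mutant ones. Cord was far above every captured array, and 1 of the 3 wild-type neuron arrays, the first, was measured above background while all 3 SOD1-mutant arrays were. The log2 change from cord was −6.45 ± 0.64 (SE; 87.2-fold, limma adjusted p = 3.56e-05) in wild-type neurons, and −5.25 with values raised to background. Without the first wild-type neuron array the fitted change was −7.35, which rests on arrays below background. In SOD1-mutant neurons it was −3.63 ± 0.24 (12.3-fold, limma adjusted p = 4.38e-06).

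The C chain gene C1qc (1449401_at) read 5247, 4548 and 4957 in cord, 21.3, 16.3 and 11.3 in wild-type neurons and 49.0, 18.8 and 198 in SOD1-mutant neurons. It was below background on all 3 wild-type neuron arrays, and on the SOD1-mutant side the third array alone was above it. The fall in wild-type neurons was at least 30.9-fold (limma adjusted p = 4.10e-07). In SOD1-mutant neurons the log2 change was −5.88 ± 0.55 (limma adjusted p = 3.12e-05), and −4.50 with values raised to background. Without the third SOD1-mutant array the fitted change was −6.57, which rests on arrays below background.

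The B chain gene C1qb is read by 3 probe sets, which agreed on a fall from cord but not on its size. Its brightest, 1417063_at, read 7569, 5818 and 6737 in cord, 92.4, 252 and 320.1 in wild-type neurons and 51.15, 51.8 and 37.5 in SOD1-mutant neurons. Here the SOD1-mutant arrays were the lowest of all, each below background, while 2 of the 3 wild-type neuron arrays were above it. The fall was 30.6-fold in wild-type neurons (log2 −4.94 ± 0.37) and at least 31.9-fold in SOD1-mutant neurons. By contrast 1437726_x_at read 4988, 4086 and 4457 in cord, 179, 568 and 216 in wild-type and 335, 608 and 419 in SOD1-mutant neurons. On 1434366_x_at the values were 2516, 2883 and 3272 in cord, 674, 957 and 579 in wild-type and 833, 984 and 801 in SOD1-mutant neurons. Both of these were above background on all 9 arrays, with cord above all captured arrays and the neuron groups overlapping. The log2 changes from cord to wild-type neurons were −3.90 ± 0.37 and −1.97 ± 0.22, or 14.9-fold and 3.91-fold.

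The 3 C1qb probe sets differed in how far they fell. The log2 ratio of 1437726_x_at to 1434366_x_at, both measured on all 9 arrays, was 0.64 ± 0.30 in cord, −1.29 ± 0.54 in wild-type neurons and −0.95 ± 0.30 in SOD1-mutant neurons (SD, n = 3 each). Between wild-type neurons and cord it differed by −1.93 (p = 0.1 by an exact permutation test, two-sided; no smaller p is possible with 3 arrays against 3, and 24 such tests were run). The ratio of 1417063_at to these probe sets differed by −1.04 and −2.97 (exact permutation p = 0.2 and 0.1), with 1 of 3 wild-type neuron arrays below background on 1417063_at. An _x_at suffix marks a probe set whose probes may also bind other transcripts, and whether that or the 3' reading of captured RNA bears on these ratios was not tested.

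**Figure D3:**
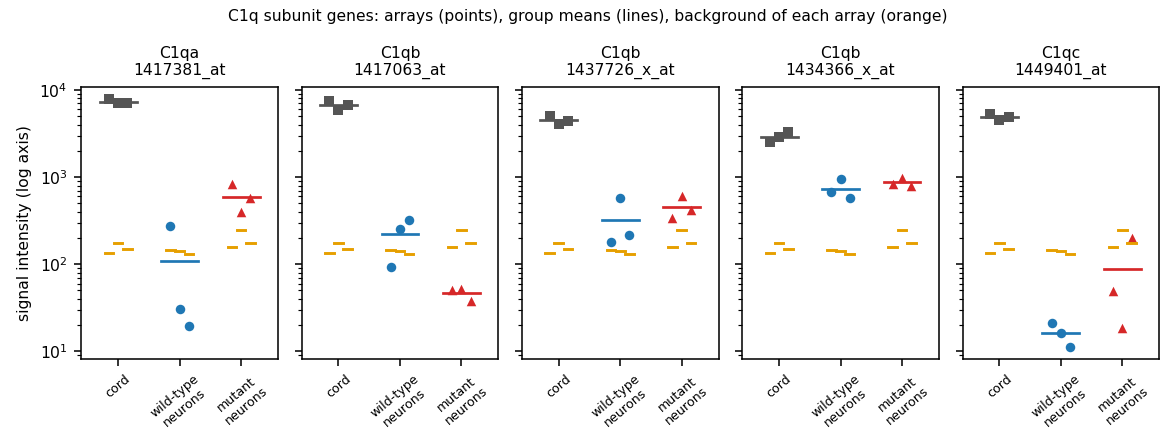
Signal intensity of the 5 C1q probe sets on a log axis, 1 point per array with a line at each group mean and an orange dash at the background of each array. Cord arrays sit between 2516 and 7862 on every panel, and SOD1-mutant arrays lie above wild-type neuron arrays for C1qa (399.9 to 825 against 19.45 to 275) but below them for C1qb 1417063_at (37.5 to 51.8 against 92.4 to 320.1).

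Among the receptors, Csf1r gave values on 1419872_at that agreed closely between arrays of a group. The cord arrays read 24620, 22120 and 23520, the wild-type neuron arrays 1580, 1616 and 1606, and the SOD1-mutant arrays 1909, 2559 and 2482. Cord stood far above both neuron groups, and each SOD1-mutant array was above each wild-type neuron array. The log2 change from cord was −3.85 ± 0.09 in wild-type neurons (14.4-fold, limma adjusted p = 3.19e-08) and −3.34 ± 0.14 in SOD1-mutant neurons (10.1-fold, limma adjusted p = 5.60e-07). Its other probe sets, 1419873_s_at and 1423593_a_at, gave 13.3-fold and 15.1-fold in wild-type neurons and 10.5-fold and 9.97-fold in SOD1-mutant neurons. Between wild-type neurons and cord the log2 ratios between the Csf1r probe sets differed by −0.12, 0.06 and 0.18 (exact permutation p = 0.7, 0.8 and 0.4, two-sided, where 0.1 is the smallest possible).

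The fractalkine receptor Cx3cr1 fell on both of its probe sets. On 1450020_at cord read 2668, 2414 and 2268, wild-type neurons 394, 392 and 506, and SOD1-mutant neurons 324, 443 and 528. All captured arrays were above background, below all cord arrays and interleaved between genotypes. The log2 change from cord was −2.46 ± 0.20 and −2.47 ± 0.23 (5.50-fold and 5.55-fold, limma adjusted p = 9.29e-06 and 3.39e-05). The dimmer 1450019_at read 451, 540 and 584 in cord and was below background on all 6 captured arrays, with falls of at least 3.40-fold and at least 2.59-fold. The log2 ratio of 1450020_at to 1450019_at differed by 1.22 between wild-type neurons and cord (exact permutation p = 0.1, two-sided).

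The nucleotide receptor P2ry12 (1431724_a_at) read 5118, 5584 and 5223 in cord, 454, 35.0 and 269 in wild-type neurons and 179, 172 and 14.4 in SOD1-mutant neurons. The cord arrays agreed closely, whereas the captured arrays of each genotype spread over a wide range on both sides of background, with 2 of 3 wild-type and 1 of 3 SOD1-mutant arrays above it. The log2 change from cord was −4.76 ± 0.65 in wild-type neurons (limma adjusted p = 2.63e-04). Leaving out the first or the second wild-type neuron array moved it to −5.40 or −3.85. In SOD1-mutant neurons it was −5.60 ± 0.60 (limma adjusted p = 7.11e-05), and −4.76 without the third SOD1-mutant array.

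Tyrobp and Trem2, the adaptor and its receptor, both fell. Tyrobp (1450792_at) read 4998, 4329 and 4014 in cord, 327, 798 and 385 in wild-type neurons and 802, 831 and 692 in SOD1-mutant neurons. It stayed above background everywhere, with the second wild-type array inside the SOD1-mutant range and the other two below it. The falls from cord were 9.15-fold (log2 −3.19 ± 0.30, limma adjusted p = 2.37e-05) and 5.61-fold (log2 −2.49 ± 0.16, limma adjusted p = 4.32e-06). Trem2 (1421792_s_at) read 750.5, 719 and 691 in cord, 29.9, 18.3 and 34.4 in wild-type neurons and 38.2, 59.2 and 39.1 in SOD1-mutant neurons. All 6 captured arrays were below background, so the falls are bounds of at least 4.64-fold and at least 3.53-fold (limma adjusted p = 9.36e-05 in wild-type neurons).

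Aif1 (1418204_s_at), whose protein is the usual stain for microglia, read 1078, 1056 and 1122 in cord, 85.65, 118 and 45.1 in wild-type neurons and 18.0, 205 and 159 in SOD1-mutant neurons. No captured array was above its background, and the genotypes overlapped. The falls were at least 6.94-fold and at least 5.28-fold (limma adjusted p = 1.13e-04 and 2.75e-03).

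Cathepsin S, Ctss (1448591_at), showed the smallest fitted fall among the brightest probe sets of the 10 genes. It read 18610, 17440 and 18450 in cord, 3713, 3591 and 3884 in wild-type neurons and 5116, 5092 and 3882 in SOD1-mutant neurons. All arrays were well above background, cord was above every captured array, and the third SOD1-mutant array lay within the wild-type neuron range. The log2 change from cord was −2.28 ± 0.09 in wild-type neurons (4.85-fold, limma adjusted p = 1.78e-07) and −1.96 ± 0.13 in SOD1-mutant neurons (3.88-fold, limma adjusted p = 4.89e-06). At the other end among the brightest probe sets stood C1qa, at 87.2-fold, and the bound of at least 30.9-fold for C1qc in wild-type neurons, and the bound of at least 31.9-fold for C1qb in SOD1-mutant neurons. Raising all values below background to it moved several changes in wild-type neurons, among them those of C1qa to −5.25, C1qc to −4.95, Trem2 1421792_s_at to −2.22 and Cx3cr1 1450019_at to −1.77, and left all 15 past the threshold.

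The comparison of SOD1-mutant with wild-type motor neurons asks whether microglial transcripts in the captured samples differ with the mutation. None of the 16 probe sets passed the test in limma, where 0.147% of all probe sets (and 0.203% of genes by their brightest) passed in either direction, and 3 had an unadjusted p under 0.05, against 11.5% of all. The SOD1-mutant arrays were all higher on 4 of 16, against 8.95% of all probe sets, and all lower on 1, against 8.68%. The 4 were C1qa, Csf1r 1419872_at and both Trem2 probe sets, of which the Trem2 ones were below background on all 6 captured arrays. The 1 was C1qb 1417063_at, with all SOD1-mutant arrays below background. The estimate was above 0 for 13 of the 16, with a median log2 difference of 0.49 against 0.03 over all probe sets. Probe sets of 1 gene and genes of 1 cell type share their source, so these counts are not those of 16 separate observations.

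C1qa had the largest difference, a log2 value of 2.82 ± 0.80 (95% interval 1.08 to 4.57; 7.06-fold higher in SOD1-mutant neurons, higher on 3 of 3 arrays, unadjusted p = 0.00434, limma adjusted p = 0.191). It passed in 3 of the alternative fits, as given in the closing section, and its adjusted p ran from 0.0215 to 0.589 over them. C1qb 1417063_at, with SOD1-mutant values all below background, was at least 1.04-fold lower there (limma adjusted p = 0.371), or −0.25 with values raised to background, while its other probe sets gave 0.61 ± 0.55 and 0.26 ± 0.31. For C1qc, where 1 of the 6 captured arrays was above background, no bound above 1 could be given (limma adjusted p = 0.519), and the log2 difference was 0.45 with values raised to background.

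Csf1r 1419872_at was 0.52 ± 0.20 higher on the log2 scale in SOD1-mutant neurons (95% interval 0.07 to 0.96, 1.43-fold, higher on 3 of 3 arrays, unadjusted p = 0.0259, limma adjusted p = 0.356). Its other probe sets gave 0.34 and 0.60 (limma adjusted p = 0.762 and 0.731). Tyrobp gave 0.71 ± 0.40 (95% interval −0.17 to 1.58) and Ctss 0.32 ± 0.17 (95% interval −0.05 to 0.69, 1.25-fold). Cx3cr1 1450020_at gave −0.01 ± 0.42 (95% interval −0.94 to 0.91) and P2ry12 −0.84 ± 0.97 (95% interval −2.95 to 1.28). The P2ry12 value was −0.20 without wild-type neuron array 1, −1.75 without wild-type neuron array 2 and −0.00 without SOD1-mutant array 3, so it rests on single arrays. Aif1 was below background on all 6 captured arrays, as were Trem2 and Cx3cr1 1450019_at, so their differences between genotypes are not measured here.

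Summed over the brightest probe set of each of the 10 genes, the signal lay between 71140 and 78510 in cord, 6868 to 7080 in wild-type neurons and 8601 to 9832 in SOD1-mutant neurons. As a percentage of the cord mean that is 9.21 to 9.5% in wild-type and 11.5 to 13.2% in SOD1-mutant neurons, without overlap. The sum rests mostly on the bright Csf1r and Ctss, which made up 23 and 53.5% of it in wild-type and 25 and 50.8% in SOD1-mutant neurons. With the signals of each array scaled to a common median, the counterpart for sums of centring log2 values, the ranges were 16.8 to 19.9% and 20.6 to 26.1%. After quantile normalization they were 9.81 to 10.2% and 12.5 to 13.6%. Background was higher on every SOD1-mutant array (157.3 to 244) than on every wild-type neuron array (131 to 146.7). Its part in these sums was not tested. Of 14 further genes of resting microglia, 7 exceeded background on all 3 arrays of each neuron group, and 0 passed between genotypes in limma. The sum of these 14 did not overlap between genotypes either. As deposited it was 12.5 to 14.9% of cord in wild-type and 16.5% or more in SOD1-mutant neurons. Within it Mertk averaged 237 in wild-type neurons, with 2 of 3 arrays above background, and 757.5 in SOD1-mutant neurons. Tmem119 went the other way, with averages of 436 and 319. After scaling to a common median the sum of the 14 was 25.2 to 27.2% and 33.3 to 37.5%, and after quantile normalization 22.7 to 24.6% and 30 to 36.9%. Sums for other cell types differed too as deposited. The astrocyte sum was 32.4 to 35.1% of cord in wild-type and 39.5 to 42.5% in SOD1-mutant neurons, the oligodendrocyte sum 37.2 to 39.8% and 44.9 to 47.5%, and the vascular and pericyte sum 13.8 to 23.5% and 25 to 26.1%. After quantile normalization these 3 sums still did not overlap. After scaling to a common median they did: astrocytes gave 59.8 to 74.6% and 66.4 to 84.3%, oligodendrocytes 67.9 to 84.5% and 74.1 to 93.6%, and vascular cells and pericytes 25.2 to 50% and 39.5 to 54.4%. As deposited, the sums of border macrophages (15.8 to 26.0% and 17.3 to 30.2%) and blood cells (10.2 to 12.6% and 9.83 to 17.1%) overlapped between genotypes. That of general leukocyte genes (25.9 to 30.9% and 20.9 to 38.7%) overlapped as well. The motor neuron sum was 1190 to 1260% and 1150 to 1200% of cord. Markers of astrocytes such as Gja1, a gap junction connexin (12470 and 29860 on average, log2 difference 1.25, limma adjusted p = 0.0179, and 0.083 after centring), were thus well above background in the captured samples. On at least 1 array of wild-type and of SOD1-mutant neurons, 12 and 12 of 12 astrocyte markers, 10 and 11 of 11 oligodendrocyte markers, 10 and 9 of 11 vascular markers, 6 and 4 of 8 border macrophage markers and 7 and 5 of 12 blood cell markers exceeded background. No marker was listed at 0. The part of these other cells in the microglial sum was not tested.

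**Figure D4:**
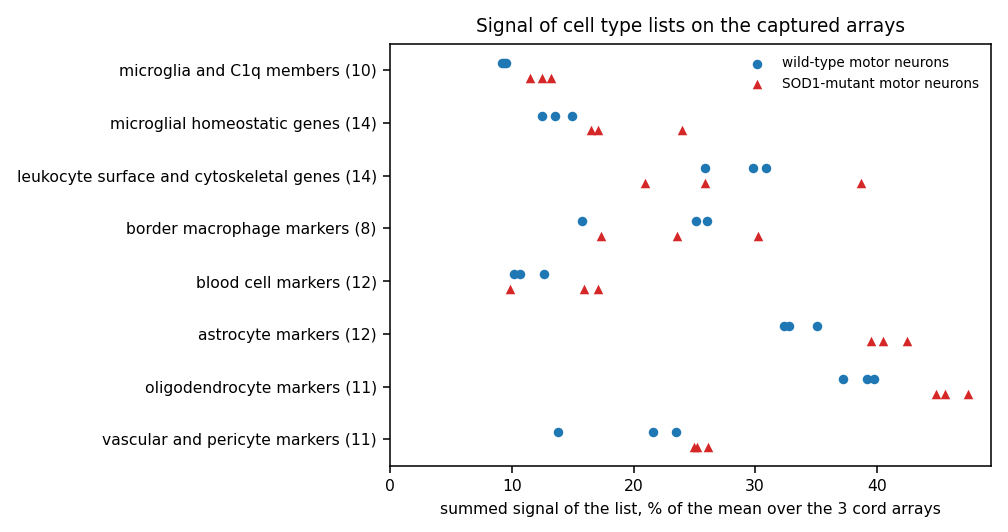
Summed signal of the brightest probe set of each gene in 8 cell type lists (number of genes in parentheses) on the captured arrays, as a percentage of the mean over the 3 cord arrays, with blue circles for wild-type and red triangles for SOD1-mutant neurons. The 10 microglial and C1q genes lie at 9.21 to 13.2% of cord, the lowest list together with blood cells, and astrocyte and oligodendrocyte lists at 32.4 to 47.5%.

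The 5 other genes closest to the mean profile of the 10, by root mean square difference of centred log2 values over the 9 arrays among 16313 genes, were Fa2h (0.15), Gpr17 (0.23), Lsr (0.24), Tst (0.26) and Plekhj1 (0.27), with Pearson correlations of 0.991 to 0.997. These correlations are across 9 arrays that form one cluster of cord and one of captured cells, so they describe mainly a common fall. Fa2h, an enzyme of myelin lipid synthesis, read 37730, 38630 and 36600 in cord, 2268, 2363 and 2178 in wild-type and 2432, 2538 and 2522 in SOD1-mutant neurons, a fall of 16.5-fold and 15-fold. Among the members Trem2 (0.20) and Csf1r (0.25) lay nearest to the mean profile, and C1qc (1.34), C1qa (1.32), C1qb (1.27) and P2ry12 (1.21) lay farthest. Each member is part of that mean and the 5 other genes are not, so the distances of members and other genes cannot be set against each other. Trem2 and Lsr were below background on all captured arrays and C1qc was above it on 1, so their distances rest on values that are not measured.

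Related genes were listed by role. Over all genes 28.6% fell and 22.5% rose from cord to wild-type neurons, and the counts of each list stand beside these shares. Of 14 further measured genes of resting microglia, 13 fell in wild-type neurons and none rose (median −2.75, against −0.10 over all genes, and 11 of 14 after either other scaling). Olfml3, a secreted glycoprotein, fell at least 14.9-fold, the G protein-coupled receptor Gpr34 at least 7.22-fold, the efferocytosis kinase Mertk by 4.01 and the purinergic receptor P2ry13 by 2.53 on the log2 scale. Of 14 general leukocyte genes 11 fell, among them the lysozyme Lyz2 by at least 29.8-fold and the lipopolysaccharide co-receptor Cd14, which fell by 3.97. One rose, the actin regulator Coro1a, by 0.75. All 8 border macrophage markers fell, such as the mannose receptor Mrc1 by at least 7.65-fold, but 3 of 8 did so after either other scaling.

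Transcription factors of the myeloid lineage moved in both directions. Of 9 measured, 4 fell (median −1.59; 3 with a median of −0.73 after quantile normalization and 2 with −0.69 after centring), among them Ikzf1 by at least 3.23-fold and Cebpa by 3.35 on the log2 scale, while Spi1, which encodes PU.1, fell by 1.94 as deposited and by 1.03 after centring, where it no longer passed (limma adjusted p = 0.123). Irf8 fell by at least 2.88-fold as deposited but did not pass after centring (−1.18, limma adjusted p = 0.0581). The other 3 called genes were higher in wild-type neurons: Maf by 2.84, from an average of 3276 in cord to 23570, Irf5 by 1.34 and Nfatc2 by 1.27. Maf is also known from spinal neurons.

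Among 12 measured Fc receptor and related signalling genes, 6 fell in wild-type neurons, where 28.6% of all genes did. The median was −0.59, and 0.32 after either other scaling, with 3 lower and 1 higher. The activating Fc receptor Fcgr3 fell by 4.29 and the shared Fc receptor chain Fcer1g, an adaptor of the same kind as Tyrobp, fell by 3.58. None of the 12 passed between genotypes in limma, and 3 had an unadjusted p under 0.05, against 13.8% of all genes. These were the kinase Btk (at least 1.52-fold higher in SOD1-mutant neurons, limma adjusted p = 0.168), the phosphatase Inpp5d (at least 1.66-fold lower, limma adjusted p = 0.191) and the phospholipase Plcg2 (log2 −0.84, limma adjusted p = 0.419).

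The ligands of the member receptors split. Apoe, a lipoprotein bound by Trem2, fell from an average of 70060 in cord to 7009 (log2 −3.33), the Csf1r ligand Il34 fell by 2.75 and the fractalkine gene Cx3cl1, which neurons make, by 1.44. Csf1, the other Csf1r ligand, changed by −0.70 as deposited but by 0.21 after centring. Clu, another lipoprotein bound by Trem2, rose by 0.84.

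Of 30 measured genes from the rest of the complement system, 8 fell and 6 rose in wild-type neurons (median −0.23). These counts are near the shares of all genes, 28.6% lower and 22.5% higher (median −0.10). After centring 3 fell and 12 rose (median 0.68), where all probe sets gave 6645 lower and 15633 higher (median 0.60). The list thus has no settled direction of its own, and the genes named next are single cases. The terminal pathway inhibitor Vtn fell by 4.87, the C1 inhibitor Serping1 fell by 3.51 and the C1q receptor-like Cd93 fell by 2.93. Cfi, the protease that inactivates C3b, rose by 3.77 from 269 to 3952 on average, and C1qbp, a mitochondrial protein that binds C1q heads, by 1.5. The membrane attack complex inhibitor Cd59a rose by 0.62 and was lower in SOD1-mutant than in wild-type neurons on all arrays (log2 −0.84, limma adjusted p = 0.0816). C3ar1, the receptor for C3a, fell by 2.23 as deposited but did not pass after centring (−1.32, limma adjusted p = 0.121).

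Proteins that share the C1q fold were treated apart from C1q itself. Of 23 measured, 11 fell and 2 rose in wild-type neurons (median −1.22, and −0.58 after quantile normalization and −0.31 after centring, where 9 fell and 3 rose). The matrix protein Emilin2 fell by 4.12, the synaptic organiser C1ql3 fell by 3.32 and its relative Cbln4 fell by 3.57, and the collagen Col8a1 fell by at least 7.33-fold. The synaptic organisers Cbln2 and Cbln1 rose by 1.19 and 0.66. Genes with a C1q fold thus leaned lower as deposited, with 11 of 23 lower and 2 higher, against 28.6% and 22.5% of all genes (median −0.10). The 3 genes of C1q itself all fell.

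Other lysosomal proteases and their inhibitors gave 10 lower and 3 higher of 15 measured (median −1.12, and 5 lower and 5 higher after centring). Ctsc fell by 5.35, Ctsh by 3.91 and Ctsk by 2.71, all larger fitted falls than that of Ctss. Ctsd, an aspartic protease of lysosomes in general, rose by 1.09 from 23550 to 50050, and the cystatin Cst6 by 1.61. None of the 15 passed between genotypes in limma, but 9 had an unadjusted p under 0.05, against 13.8% of all genes. Ctsc was higher in SOD1-mutant neurons (log2 2.45, limma adjusted p = 0.193), but exceeded background on 1 of 3 wild-type neuron arrays, so the size of this difference is not measured. Lgmn (−0.70, limma adjusted p = 0.133), Cst6 (−0.83, limma adjusted p = 0.158), Ctsf (−0.69, limma adjusted p = 0.295) and Ctsz (−0.43, limma adjusted p = 0.306) were lower on all SOD1-mutant arrays.

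Of 14 measured genes that microglia are known to switch on in disease, 9 fell in wild-type neurons and none rose (median −1.32, and 6 lower and 3 higher after centring), among them the lipase Lpl by 5.46, while the receptor kinase Axl fell by 5.18 and the tetraspanin Cd9 fell by 4.24. Between genotypes none of the 14 passed in limma, and 1 had an unadjusted p under 0.05, against 13.8% of all genes. The median was 0.06 against 0.01 over all genes. Axl differed by 1.44 on the log2 scale (limma adjusted p = 0.52), and Gpnmb was at least 1.39-fold higher in SOD1-mutant neurons (limma adjusted p = 0.708). Cst7 was below background on all 9 arrays.

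**Figure D5:**
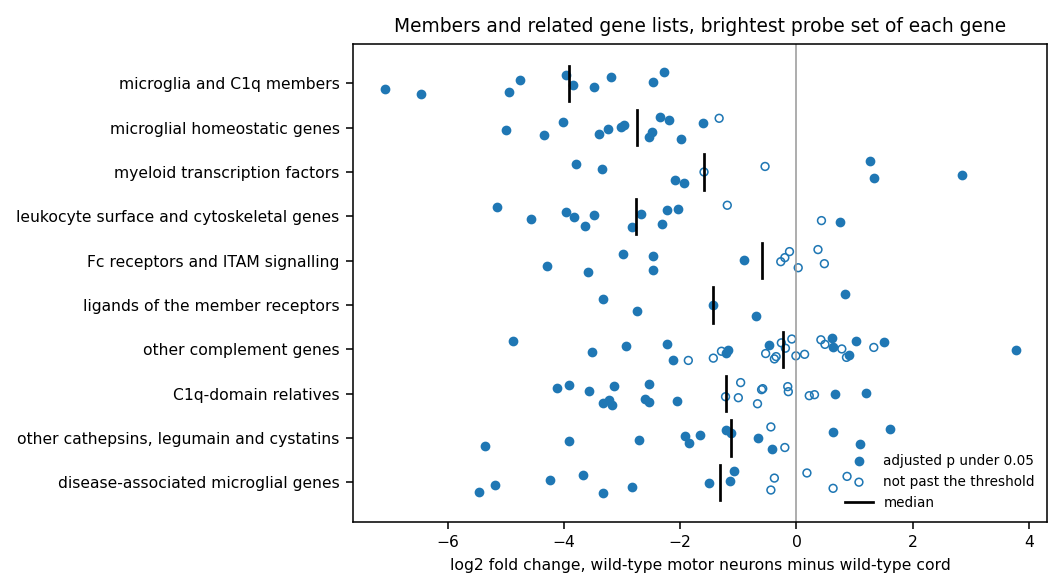
Log2 fold change of wild-type motor neurons minus wild-type cord for the brightest probe set of each gene in the 10 member genes and 9 related lists, filled where the limma adjusted p was under 0.05, with a line at each list median. The fitted values of the members lie between −7.08 and −2.28, and the complement and transcription factor lists reach from below −3 to above 2.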

How the data were processed

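The values were linear signal intensities of probe sets, as deposited by the authors. The trimmed mean (2% off each end) is 2500 on each array, which shows a scaling before deposit. The software behind the intensities is not named in the labels or files used here. Groups and replicate numbers came from the sample names. The 64 control probe sets were left out and the other 45037 were all tested, with no filter on dim ones. After log2(intensity + 20.3), each comparison was fitted on its own 6 arrays with limma 3.58.1 (lmFit, eBayes with an intensity trend) in R 4.3.3, two-sided, with Benjamini-Hochberg adjustment. The scripts were tested on simulated data. By the platform annotation 34945 probe sets have 1 gene, 932 have several (not named here) and 9160 have none. A gene is represented by its brightest probe set, by mean over the group means. Ratios between probe sets were compared with exact permutation tests in Python 3.11.15, and figures drawn with matplotlib 3.10.9.

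The members and the gene lists were chosen with earlier results of these data known. All 10 members are described. The other lists were each sampled by a rule: in each comparison, at most 4 called genes, those of largest change, and in a comparison without calls the 2 brightest. P2ry13, Spi1, Irf5, Plcg2, C3ar1, Cst6, Ctsd, Lgmn, Ctsz, Gpnmb and Cst7 fall outside it and were named after their values were seen. The alternatives were quantile normalization, centring on the median, filters at the 40th and 60th percentiles, a pseudocount 4 times larger or smaller, values raised to background, no intensity trend, a single fit of all 9 arrays, weights per array, a block by replicate number, and the omission of each array in turn.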

Additional observations from a re-analysis of the deposited data

How the results depend on the processing

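Under every alternative run, each member probe set that was lower than cord kept its direction and passed wherever it was tested. The count was 15 in both comparisons with cord, apart from 14 of 14 and 12 of 12 under the filters at the 40th and 60th percentiles, which leave out dimmer probe sets, and it was 15 to 15 without each array in turn. Between genotypes the count was 0 and became 1 with values raised to background, with all 9 arrays in 1 fit and with array weights. That probe set was C1qa, at 1.62 (limma adjusted p = 0.0305), 2.82 (limma adjusted p = 0.0352) and 3.39 (limma adjusted p = 0.0215). Without each array in turn the count was 0 to 0, and C1qa was 2.28 to 3.73. Over all probe sets the calls between genotypes were 66, against 40 after quantile normalization, 6 after centring, 13 and 75 with a larger and a smaller pseudocount, 996 with values raised to background, 865 with all 9 arrays, 0 with no intensity trend, 1835 with array weights, and 6 to 35 without 1 array. Uncalled values that changed sign were Trem2 1421226_at against cord in wild-type neurons (0.29 after centring), Cx3cr1 1450020_at between genotypes (0.01 with array weights, 0.10 without wild-type neuron array 3, 0.17 without SOD1-mutant array 1, −0.16 to 0.17 over all arrays left out) and Aif1 between genotypes (−0.07 without wild-type neuron array 3, −0.25 and −0.09 without SOD1-mutant array 2 or 3; −0.25 to 1.02 over all arrays left out). Leaving out 1 array also moved called changes from cord in SOD1-mutant neurons by over 1.5-fold for Aif1 (−2.46 without array 1) and Cx3cr1 1450019_at (−3.64 without array 3). The labels do not say whether replicate numbers pair the arrays. Deviations of same-numbered arrays correlated at −0.01 to 0.077, and those of differently numbered arrays at −0.087 to 0.032. Between genotypes the same-numbered arrays gave 0.069, 0.077 and 0.003, and the differently numbered ones −0.087 to 0.026. Whether arrays of one replicate number share a source was not tested. With the number as a block 15, 15 and 0 member probe sets passed, and calls over all probe sets were 19877, 18745 and 402 against 20418, 19243 and 66. The causes of these shifts were not tested. Signals below background make changes from cord bounds for Trem2 1421792_s_at, Aif1 and Cx3cr1 1450019_at in both neuron groups, for C1qc in wild-type and for C1qb 1417063_at in SOD1-mutant neurons.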
